A study of Gallus gallus with 65 samples.

Results

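The zinc finger regulators described here are the array genes whose symbol belongs to one of the named families of developmental zinc finger factors. The families are KLF, SP and EGR, GLI and ZIC, the SNAI and ZEB repressors, GATA, the BTB repressor BCL6, PRDM, SALL, PLAG, GFI1, HIVEP and Ikaros, with ZFX, ZFY, YY1, CTCF and WT1. They were chosen by symbol, with earlier results of these data known. Of the 1507 genes on the array, 66 met the rule. Of these, 53 passed a filter that removed the dimmest 15% of gene probes and could be tested among 1281 genes. The other 13 were too dim to test, namely KLF8, KLF13, KLF15, SP1, SP4, BCL6, GFI1, PRDM14, PRDM15, ZNFN1A1, ZNFN1A3, YY1 and CTCF. Relatives printed under other symbols, among them SLUG (SNAI2), COPEB (KLF6) and FOG2 (ZFPM2), were outside the rule.

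The RNA came from the sensory epithelium of the chick utricle, a balance organ whose hair cells are replaced after they die. Utricles of young White Leghorn chicks were cultured for 24 hr with neomycin, an aminoglycoside antibiotic that kills hair cells, or without it. The 0 hr samples were thus taken 24 hr after the drug was added. Neomycin-treated epithelia were taken directly after treatment (0 hr recovery) or after 24 or 48 hr of recovery in medium without the drug, and each was set against untreated control epithelia of the same time point, pooled like the treated ones from several birds. There were 3 biological replicates at each time point, hybridised to 25 arrays at 0 hr, 21 at 24 hr and 19 at 48 hr, with neomycin in Cy3 on 34 arrays and in Cy5 on 31. Every value below is a log2 ratio of neomycin over control unless another scale is named, so 0 means equal signal. With pooled tissue, fewer cells of a type and less RNA per cell cannot be told apart.

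Zinc finger proteins of these families bind DNA through repeated finger modules, each read into a few bases, and act as switches of cell fate. GLI proteins carry the Hedgehog signal to its target genes, SNAI and ZEB proteins repress epithelial adhesion genes, EGR genes are switched on within the first hour of many stimuli, and KLF and SP proteins share GC-rich sites. In the inner ear, GATA3 is needed for the ear to form and, in mice, GFI1 is needed for hair cells to survive.

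Several features of the arrays bear on all values. The probes were designed to human genes, and 54 of the 66 symbols were gene names of the chicken RefSeq annotation (GRCg7b). Another 5 matched through a synonym (TCF8 as ZEB1, ZFHX1B as ZEB2, GLI as GLI1, ZNFN1A1 as IKZF1 and YY1 as YY2). YY1 was thus not found under its own symbol. The other 7 did not match (EGR2, GATA1, PRDM7, PRDM9, SALL2, ZNFN1A3 and ZFY). Median signal over background was 2.02 in Cy3 and 1.83 in Cy5. Brightness patterns of 4 arrays correlated with that of the other arrays below 0.5. These arrays, all kept in the fit, were in 0 hr replicate 3 (r = 0.194 and 0.211), 0 hr replicate 2 (0.465) and 48 hr replicate 3 (0.148). The spot grid of 1 of them, in 48 hr replicate 3, matched the layout better after a move by 1 row (r = 0.14 as given and 0.628 moved). That array was kept unmoved as 1 of the 6 arrays of its replicate, so every 48 hr value of replicate 3 includes it. The direction of each ratio was named by the image headers of all 65 arrays. Within a replicate, the ratios of both dye orientations, once turned to neomycin over control, correlated over the tested genes at a median of only -0.236. The orientations thus seldom gave the same ratio. The sign of all values rests on the headers and on the deposited ratios, which are turned the same way, and holds only as far as these do. Replicates of the same time point correlated over the tested genes at a median r of 0.0225, and those of different time points at 0.131. Of the cell type markers printed, 2 of 4 for hair cells and 8 of 12 for supporting cells were bright enough to test, with 0 called at any time. The hair cell factor POU4F3 was too dim to test and was at -0.11 ± 0.21 at 0 hr, -0.09 ± 0.28 at 24 hr and -0.15 ± 0.16 at 48 hr (SD, n = 3 each), and the tested hair cell factors ATOH1 and BARHL1 lay between -0.04 and 0.04 in their means.

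No zinc finger regulator passed the test at a single time point, and only HIVEP2 did in the mean over the 3 time points. In limma, with Benjamini-Hochberg adjustment over the 1281 genes, 0 of 53 members were called at an adjusted p under 0.05 at 0, 24 and 48 hr (0% of all tested genes in each case). At an unadjusted p under 0.05 there were 6 members at 0 hr (6.4% of all tested genes and 11.3% of members), 4 at 24 hr (5.93% and 7.55%) and 7 at 48 hr (7.42% and 13.2%). In the mean over the time points 1 of 53 members was called, against 5 genes or 0.39% of all tested genes, and 11 members had an unadjusted p under 0.05 (20.8%, against 12.2% of all tested genes). Of those, 8 lay above 0 (7.96% of all tested genes did) and 3 below it (4.22%). An F test of all 3 time points together called 0 members (0% of all tested genes) and had 8 with an unadjusted p under 0.05 (7.34% of all tested genes). Of the 53 members, 30 lay above 0 at 0 hr, 27 at 24 hr and 26 at 48 hr, with medians of 0.02, 0.00 and -0.01, and the median over all tested genes was 0.00, 0.00 and 0.01.

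**Figure D1:**
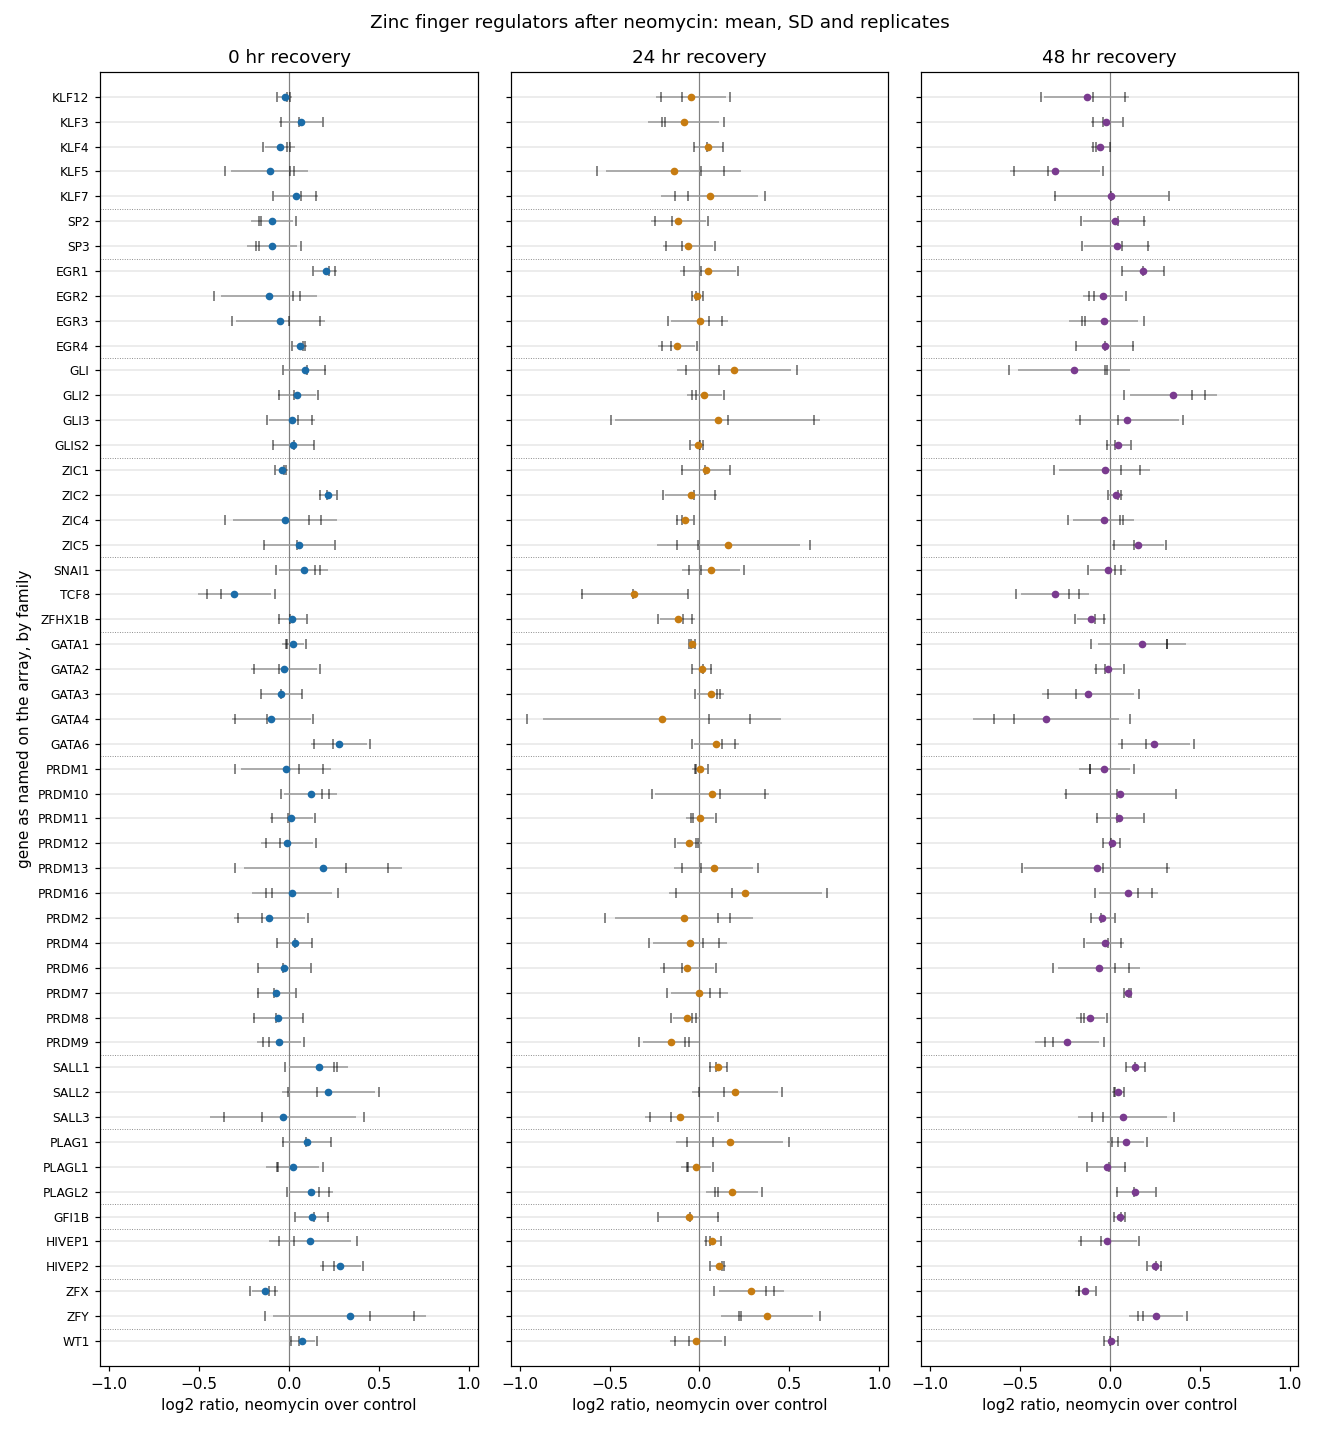
Log2 ratio of neomycin over control (x axis) of 51 of the tested zinc finger regulators (rows, families parted by dotted lines) at 0, 24 and 48 hr recovery. Dots are means and grey bars SDs of 3 biological replicates, and ticks are the replicates. Most rows straddle 0, while HIVEP2 lies right and TCF8 left of 0 at all 3 times.

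In this fit HIVEP2 alone among the members passed the threshold, and only with the recovery times averaged. It encodes a very large zinc finger protein of the Schnurri type that binds sites resembling those of NF-kappaB. Its replicates stood at 0.41, 0.25 and 0.19 at 0 hr, 0.13, 0.06 and 0.14 at 24 hr, with 0.28, 0.21 and 0.26 at 48 hr. All 9 were above 0, the weakest at 24 hr, as in 25 of the tested genes (1.95%) and in 1 of the 53 members. The mean over the time points was 0.21 (SE 0.04, 95% interval 0.13 to 0.30, limma adjusted p = 0.0493), or 1.16-fold, and 47 of the 65 arrays were above 0. Arrays with neomycin in Cy3 averaged 0.26 and those with neomycin in Cy5 averaged 0.17. The adjusted p lay just inside the threshold. Of 21 other ways to process or fit the data, 6 called HIVEP2, with adjusted p from 0.00361 to 0.478 and ratios from 0.16 to 0.54. Among the 6 were the fits over all arrays, which gave the smallest adjusted p and treat arrays of shared RNA as more independent. Of the 9 fits without 1 replicate, only that without 0 hr replicate 2 called HIVEP2 (adjusted p from 0.034 to 0.242). Its relative HIVEP1 was at 0.12 ± 0.23 at 0 hr, 0.07 ± 0.04 at 24 hr and -0.01 ± 0.17 at 48 hr (SD, n = 3 each), with a mean of 0.06.

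TCF8, the array's name for ZEB1, lay furthest below 0 of all members and of all 1281 tested genes in the mean over the time points. The protein binds E-boxes and represses E-cadherin in cells that leave an epithelium. The replicates gave -0.38, -0.08 and -0.46 at 0 hr, -0.37, -0.06 and -0.65 at 24 hr, with -0.23, -0.17 and -0.52 at 48 hr. All 9 were below 0, as in 5 of the tested genes (0.39%) and in 1 of the 53 members, and replicate 2 was the one nearest 0 at each time. The mean was -0.32 (SE 0.07, 95% interval -0.47 to -0.18), or 0.80-fold, and missed the threshold (limma adjusted p = 0.0748). Of the 9 fits without 1 replicate, only that without 0 hr replicate 2 called it (-0.36, adjusted p = 0.0256). The highest adjusted p of those 9 fits was 0.252. Of 21 other ways to process or fit the data, 4 called TCF8 (adjusted p from 0.000883 to 0.369). Those 4 were the fit with the replicate number as a block and the fits over all arrays. The latter, which gave the smallest adjusted p, treat arrays of shared RNA as more independent. Arrays with neomycin in Cy3 averaged -0.41 and those with neomycin in Cy5 averaged -0.24, and 20 of 65 arrays were above 0.

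The other 2 repressors of this group lay nearer to 0 in this fit. ZFHX1B (ZEB2), which acts on the same E-boxes, had 0.01, -0.06 and 0.10 at 0 hr, -0.04, -0.09 and -0.23 at 24 hr, with -0.03, -0.08 and -0.19 at 48 hr. Its 6 later replicates were all below 0, and the mean over the time points was -0.07 (95% interval -0.16 to 0.02, adjusted p = 0.534). With plain background subtraction it was -0.71, further from 0 than any value of TCF8 over the alternatives (-0.43 to -0.24), and was still not called (adjusted p = 0.282). SNAI1, a repressor of E-cadherin in early embryos, had -0.07, 0.15 and 0.17 at 0 hr, 0.01, 0.25 and -0.06 at 24 hr, with 0.07, -0.12 and 0.03 at 48 hr. Its replicates fell on both sides of 0 at every time, with a mean of 0.05 (95% interval -0.06 to 0.15, adjusted p = 0.742). Partners that these and the BTB proteins recruit were matched by exact symbol. Of 21 corepressor symbols 6 were printed and 5 tested, with 0 called at any time and medians of 0.05, 0.00 and -0.07 at 0, 24 and 48 hr. Partners printed under other names were not counted, such as RCOR1, which the paper lists as KIAA0071.

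**Figure D2:**
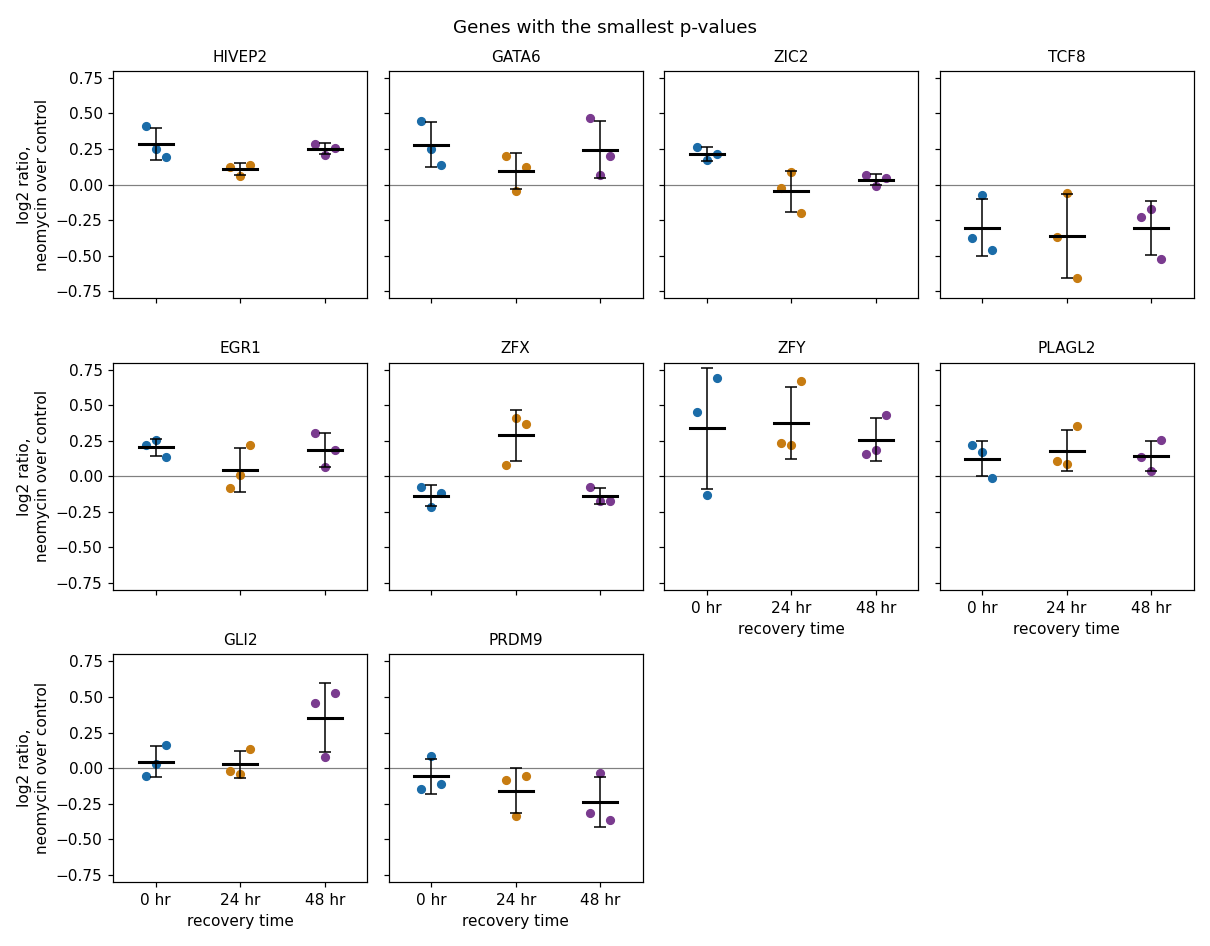
Log2 ratio of neomycin over control (y axis) by recovery time (x axis) for the genes with the smallest p-values at 0, 24 or 48 hr or in the mean over the times. Dots are the 3 biological replicates, thick lines their means and bars their SDs. TCF8 is below 0 and HIVEP2 above it in all 9 replicates, and ZFX is above 0 at 24 hr only.

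In the GLI and ZIC group, GLI2 at 48 hr had the smallest p of any member at that time. GLI2 is the main activator of Hedgehog targets. It was at -0.05, 0.03 and 0.16 at 0 hr, -0.02, -0.04 and 0.14 at 24 hr, with 0.46, 0.08 and 0.53 at 48 hr. At 48 hr all 3 replicates were above 0 and 2 of them above every earlier one, with a mean of 0.35 ± 0.24 (SD, n = 3), or 1.28-fold, which missed the threshold (limma adjusted p = 0.598). The highest, 0.53, was replicate 3, which holds the array whose grid matched better after a move. With 1 replicate left out at a time, the 48 hr mean ran from 0.27 to 0.49. The step of 0.33 at 48 against 24 hr (SE 0.13) did not pass either (adjusted p = 0.999). Both orientations gave similar values at 48 hr, 0.41 with neomycin in Cy3 and 0.30 in Cy5, while at 24 hr they stood at 0.34 and -0.28.

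GLI1, printed as GLI and itself a target of the pathway, ran the other way at 48 hr. Its replicates were 0.20, -0.03 and 0.10 at 0 hr, -0.07, 0.54 and 0.11 at 24 hr, with -0.03, -0.01 and -0.56 at 48 hr. A single replicate set the high mean at 24 hr (0.19 ± 0.32), and another the low mean at 48 hr (-0.20 ± 0.31, SD, n = 3 each). The latter was replicate 3, which holds the array whose grid matched better after a move. The probe was among the dimmest tested, with an intensity of 504.6 against a limit of 499.3. GLI3, mainly a repressor, had the widest spread of the family, with 0.13, -0.12 and 0.05 at 0 hr, 0.64, 0.16 and -0.49 at 24 hr, with 0.41, -0.16 and 0.04 at 48 hr. Its mean of 0.07 had a 95% interval from -0.14 to 0.28. GLIS2, a relative outside the Hedgehog pathway, stayed between -0.09 and 0.14 in all 9 replicates. Of 14 Hedgehog pathway symbols only SHH and IHH, both ligands, were on the array. SHH was at -0.10 ± 0.26 at 0 hr, 0.07 ± 0.20 at 24 hr and -0.28 ± 0.15 at 48 hr (SD, n = 3 each), not called at 48 hr (adjusted p = 0.598), and IHH was at -0.07, -0.13 and 0.03.

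ZIC proteins have fingers like those of GLI and are known for patterning the neural plate and cerebellum. ZIC2 had 0.26, 0.17 and 0.21 at 0 hr, -0.03, 0.09 and -0.20 at 24 hr, with 0.06, -0.01 and 0.05 at 48 hr. Its 3 replicates at 0 hr lay above the 6 later ones, with a mean of 0.22 ± 0.05 (SD, n = 3, limma adjusted p = 0.576), and the difference of -0.26 at 24 against 0 hr was not called (adjusted p = 0.997). How many of all tested genes separate in this way was not counted. ZIC1 had -0.03, -0.02 and -0.08 at 0 hr, 0.03, 0.17 and -0.10 at 24 hr, with -0.31, 0.17 and 0.06 at 48 hr. It showed no side, with a mean of -0.01 (95% interval -0.13 to 0.11). ZIC4 was lowest at 24 hr (-0.08 ± 0.05) and ZIC5 highest (0.16 ± 0.40, SD, n = 3 each), a mean set by 1 replicate at 0.62 beside others at -0.12 and -0.01. ZIC5 was again highest at 48 hr (0.16 ± 0.14). Over GLI and ZIC together, 7 of 9 members lay above 0 at 0 hr, 6 at 24 hr and 5 at 48 hr, with medians of 0.04, 0.04 and 0.03.

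Among the GATA factors, GATA6 had the highest and GATA4 the lowest mean at each time. GATA6, which acts in heart, gut and lung endoderm, had 0.45, 0.25 and 0.14 at 0 hr, 0.20, -0.04 and 0.13 at 24 hr, with 0.47, 0.07 and 0.20 at 48 hr. Of the 9 replicates 8 were above 0, as were 43 of 65 arrays. The share of all tested genes with 8 of 9 replicates on one side was not counted, for GATA6 or for the genes below. The mean was 0.21 (SE 0.05, 95% interval 0.09 to 0.32) and was not called (limma adjusted p = 0.117). Both orientations lay above 0, at 0.18 with neomycin in Cy3 and 0.23 in Cy5. GATA4, a close relative with heart roles, had means of -0.10 ± 0.22, -0.21 ± 0.66 and -0.35 ± 0.41 at 0, 24 and 48 hr (SD, n = 3 each). Its replicates ran from 0.28 down to -0.96 at 24 hr and from 0.11 down to -0.64 at 48 hr, and each SD exceeded its mean in size. Of the 9 replicates of GATA4, 4 were above 0. The mean over the times was -0.22 (95% interval -0.47 to 0.03, limma adjusted p = 0.471).

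GATA3, the family member known from the ear, showed no shift beyond its spread. Its replicates were -0.04, 0.07 and -0.15 at 0 hr, -0.02, 0.10 and 0.12 at 24 hr, with 0.16, -0.34 and -0.19 at 48 hr. The 95% interval of its mean ran from -0.15 to 0.08 around -0.03. GATA1, a factor of red blood cells, had 0.02 ± 0.06 at 0 hr, -0.04 ± 0.02 at 24 hr and 0.18 ± 0.24 at 48 hr (SD, n = 3 each). The blood and macrophage markers tested (4 of 6 on the array, GATA1 itself among them and the highest at 48 hr) had medians of -0.04, -0.04 and 0.07 at 0, 24 and 48 hr. GATA2, a factor of blood progenitors, stayed between -0.20 and 0.17. The 9 tested GATA cofactors, such as LMO2 and the adaptor LMO4, had 0 called at any time, with medians of -0.04, -0.02 and -0.04. Cofactors were matched by exact symbol, so ZFPM2, printed as FOG2, was not among them.

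Of the tested members of the KLF, SP and EGR families, EGR1 had the highest and KLF5 the lowest mean over the time points. EGR1, the best known immediate early gene of the family, had 0.22, 0.25 and 0.13 at 0 hr, -0.08, 0.01 and 0.22 at 24 hr, with 0.30, 0.07 and 0.18 at 48 hr. Of the 9 replicates 8 were above 0 and all 3 were at 0 and at 48 hr. The mean was 0.14 (SE 0.05, 95% interval 0.04 to 0.24, limma adjusted p = 0.173), but the orientations differed by time, with -0.14 for neomycin in Cy3 and 0.23 in Cy5 at 24 hr, and 0.41 and -0.04 at 48 hr. EGR2, EGR3 and EGR4 had means over the times from -0.05 to -0.03. The 17 tested cofactors and fellow immediate early genes, among them FOS, JUN and the EGR corepressors NAB1 and NAB2, had 0 called at any time. Their medians were -0.02, 0.00 and -0.01 at 0, 24 and 48 hr. The lowest of that list were NAB1 at 24 hr, at -0.28 ± 0.44 (unadjusted limma p = 0.0441, adjusted p = 0.798), and JUNB at 48 hr, at -0.21 ± 0.12 (unadjusted limma p = 0.0432, adjusted p = 0.632). Both errors are SDs of 3 replicates.

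KLF5, a factor of dividing epithelial cells, gave the lowest means of the 5 tested KLF genes at all 3 times. Its values were 0.00, 0.03 and -0.36 at 0 hr, 0.14, 0.01 and -0.57 at 24 hr, with -0.34, -0.04 and -0.53 at 48 hr. Of the 9 replicates 4 were above 0. Replicate 3 was the lowest each time, and at 48 hr it holds the array whose grid matched better after a move. The mean at 48 hr was -0.30 ± 0.25 (SD, n = 3, limma adjusted p = 0.632). With neomycin in Cy3 and in Cy5, KLF5 was at 0.09 and -0.31 at 0 hr, 0.03 and -0.31 at 24 hr, with -0.29 and -0.32 at 48 hr. KLF4, a factor of epithelial barriers, had -0.15, 0.00 and -0.01 at 0 hr, 0.13, -0.03 and 0.04 at 24 hr, with 0.00, -0.09 and -0.08 at 48 hr, and the 95% interval of its mean was -0.11 to 0.07. KLF3, KLF7 and KLF12 lay between -0.13 and 0.07 in their means. KLF3 was printed in 2 separate places on the array, and its pairs of spots gave 0.07 and 0.06 at 0 hr, -0.19 and 0.01 at 24 hr, with 0.15 and -0.19 at 48 hr, and means over the times of 0.01 and -0.04. These means were close at 0 hr and apart at both later times, and over the 9 replicates the pairs correlated at r = -0.084. SP2 and SP3, readers of GC boxes, lay between -0.12 and 0.04 in their means at each time.

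The means of SALL1 and SALL2 lay above 0 at all 3 times. SALL1, mutated in a human syndrome with hearing loss, had -0.02, 0.25 and 0.27 at 0 hr, 0.06, 0.09 and 0.15 at 24 hr, with 0.09, 0.19 and 0.14 at 48 hr. Its mean of 0.14 (SE 0.04, 95% interval 0.04 to 0.23) was the same with neomycin in Cy3 (0.14) and in Cy5 (0.14), and 47 of 65 arrays were above 0. It was not called in limma over the replicates (adjusted p = 0.176). SALL2 had means of 0.22 ± 0.26, 0.20 ± 0.24 and 0.05 ± 0.03, and SALL3, the third member, had -0.03 ± 0.41, -0.11 ± 0.19 and 0.07 ± 0.25 at 0, 24 and 48 hr (SD, n = 3 each).

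PLAGL2, a growth-promoting relative of the oncogene PLAG1, had 0.22, 0.17 and -0.01 at 0 hr, 0.10, 0.09 and 0.35 at 24 hr, with 0.13, 0.04 and 0.26 at 48 hr. Of these 8 were above 0, and the mean of 0.15 (SE 0.05, 95% interval 0.05 to 0.25) was not called (limma adjusted p = 0.171). PLAG1 was at 0.10 ± 0.14, 0.17 ± 0.30 and 0.09 ± 0.10 at 0, 24 and 48 hr (SD, n = 3 each), with 1 replicate at 0.50 and the others at -0.07 and 0.08 at 24 hr. PLAGL1, a growth suppressor, was at 0.02, -0.02 and -0.02.

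ZFX and ZFY encode near-identical proteins in humans, so a probe to one may also bind RNA of the other, and only ZFX was matched in the chicken annotation. ZFY had 0.45, -0.13 and 0.69 at 0 hr, 0.23, 0.22 and 0.67 at 24 hr, with 0.15, 0.19 and 0.43 at 48 hr. It had the highest mean of all members over the times, 0.32 (SE 0.08, 95% interval 0.15 to 0.50, limma adjusted p = 0.113), with 8 of 9 replicates and 52 of 65 arrays above 0. Of the 9 fits without 1 replicate, only 1 called ZFY (0.40, adjusted p = 0.0169). That fit left out 0 hr replicate 2, the only replicate below 0, and the highest adjusted p of those 9 fits was 0.273. Of 20 other ways to process or fit the data, 4 called ZFY (adjusted p from 0.000883 to 0.369). Those 4 were the fit with the replicate number as a block and the fits over all arrays. The latter, which gave the smallest adjusted p, treat arrays of shared RNA as more independent. ZFX had -0.08, -0.22 and -0.11 at 0 hr, 0.08, 0.41 and 0.37 at 24 hr, with -0.07, -0.17 and -0.17 at 48 hr. Its replicates at 24 hr did not overlap with those of either other time, but the share of all tested genes with such a gap was not counted. The ZFX probe was among the dimmer ones tested, with an intensity of 518.9 against a limit of 499.3. Over 18 alternatives its mean at 24 hr ran from 0.16 to 1.33, with 0 of them calling it. The difference was 0.42 at 24 against 0 hr and -0.43 at 48 against 24 hr (SE 0.11 each), with unadjusted p of 0.00271 and 0.00255 and adjusted p of 0.997 and 0.999.

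Between time points, 0 of 53 members were called at 24 against 0 hr, at 48 against 24 hr and at 48 against 0 hr (0% of all tested genes in each). At an unadjusted p under 0.05 there were 2 members at 24 against 0 hr (2.58% of all tested genes), 3 at 48 against 24 hr (3.67%) and 1 at 48 against 0 hr (2.73%).

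The PRDM genes, whose products combine fingers with a PR domain related to histone methyltransferases, formed the largest family, with 13 of 15 tested. Of these 5 lay above 0 at 0 hr, 5 at 24 hr and 6 at 48 hr, with medians of -0.02, -0.05 and -0.03. PRDM9, the factor that places meiotic recombination in mammals, had -0.14, 0.08 and -0.11 at 0 hr, -0.08, -0.34 and -0.06 at 24 hr, with -0.32, -0.03 and -0.36 at 48 hr. In 8 of 9 replicates it was below 0, with a mean of -0.15 (SE 0.05, limma adjusted p = 0.21). PRDM1, which drives B cells to become plasma cells, lay between -0.30 and 0.19, and its mean of -0.02 had a 95% interval from -0.13 to 0.10. PRDM16, a factor of brown fat, had the highest PRDM mean at 24 hr (0.26 ± 0.43, SD, n = 3). PRDM13, a factor of spinal and retinal neurons, was close to the scanner's ceiling in at least 1 dye on 41 of 65 arrays, and gave -0.34 with neomycin in Cy3 against 0.47 in Cy5.

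**Figure D3:**
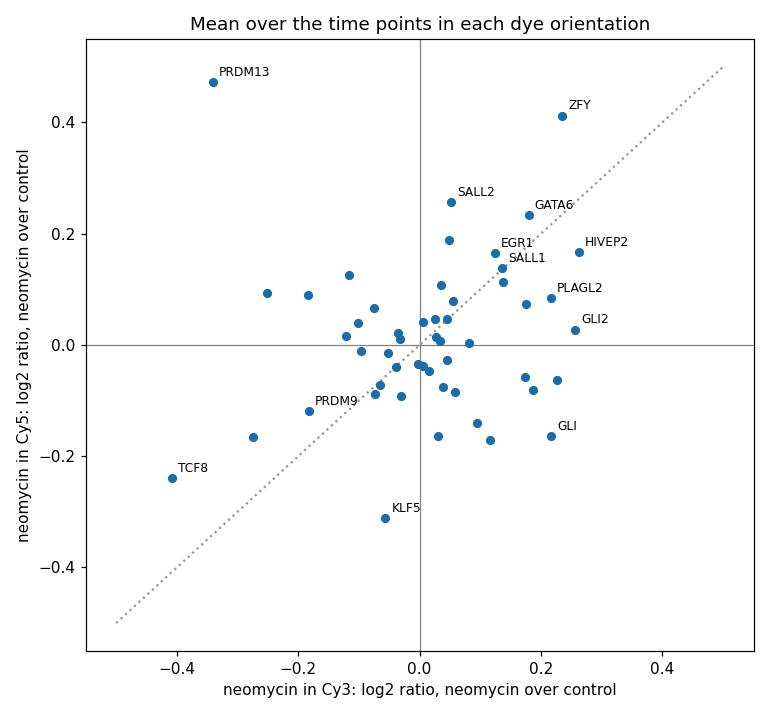
Mean log2 ratio over the time points of 51 tested members on arrays with neomycin in Cy3 (x axis) and in Cy5 (y axis), both as neomycin over control. Points on the dotted line agree in both orientations, as SALL1 does, while PRDM13 lies in a quadrant of opposite signs.

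Over the 53 members, the signs of both orientations matched for 30 in the mean over the time points (56.6%, against 42.9% of all tested genes). At 0, 24 and 48 hr they matched for 28, 28 and 23 (52.8%, 52.8% and 43.4%, against 45.2%, 45.8% and 40.6% of all tested genes). Across members the 2 orientations correlated at r = 0.0438, as a description over genes of the same arrays. HIVEP2, TCF8, ZFY, GATA6, EGR1, SALL1, PLAGL2 and PRDM9 were among those with matching signs. Apart from SALL1, these had been picked for small p-values of averages over both orientations. That choice favours matching signs, so the match is no separate support for them.

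The study's methods listed genes past 1.2-fold with a small unadjusted p from a test over hybridisations and a common trend in most of them. They also dropped poor hybridisations found by clustering, and genes under an intensity limit set from control spots. Here all arrays were kept, and dim probes were removed by their share instead. With the same fold but limma's unadjusted p under 0.05 over the replicates, and no rule on the trend, members above 0 were GATA6, HIVEP2 and ZFY at 0 hr (3 of 53, against 2.03% of all tested genes), ZFX and ZFY at 24 hr (2, against 1.33%) and GLI2 at 48 hr (1, against 2.11%). Members below 0 were TCF8 at 0 hr (1 of 53, against 1.09%), TCF8 at 24 hr (1, against 1.41%) and KLF5 and TCF8 at 48 hr (2, against 0.781%). TCF8 was the only member listed at all 3 times. The methods' own test was also used in place of limma, again with no rule on the trend, for members past that fold in either direction. Over hybridisations they numbered 3, 3 and 5 at 0, 24 and 48 hr (against 2.73%, 1.95% and 3.36% of all tested genes). Over the replicates they numbered 1, 0 and 0 (against 0.859%, 0.39% and 0.625%).

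The known role genes GFI1, BCL6, YY1 and CTCF were too dim to test, and their ratios are given as a description. GFI1, needed for hair cell survival in mice, had 0.07, -0.08 and 0.15 at 0 hr, 0.18, -0.10 and -0.02 at 24 hr, with 0.05, -0.13 and 0.01 at 48 hr. BCL6, a repressor of germinal centre B cells, had -0.18, -0.16 and -0.04 at 0 hr, -0.07, 0.21 and -0.03 at 24 hr, with 0.08, -0.33 and -0.27 at 48 hr. Neither kept to one side of 0 over the times, although BCL6 had all 3 replicates below 0 at 0 hr. YY1, a ubiquitous regulator, had means of -0.10 ± 0.16, 0.08 ± 0.15 and -0.07 ± 0.02, and CTCF, which holds chromatin loops, had 0.01 ± 0.15, 0.12 ± 0.26 and -0.07 ± 0.16 at 0, 24 and 48 hr (SD, n = 3 each). The tested members that remain, GFI1B and WT1, had means over the times of 0.04 and 0.02.

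**Figure D4:**
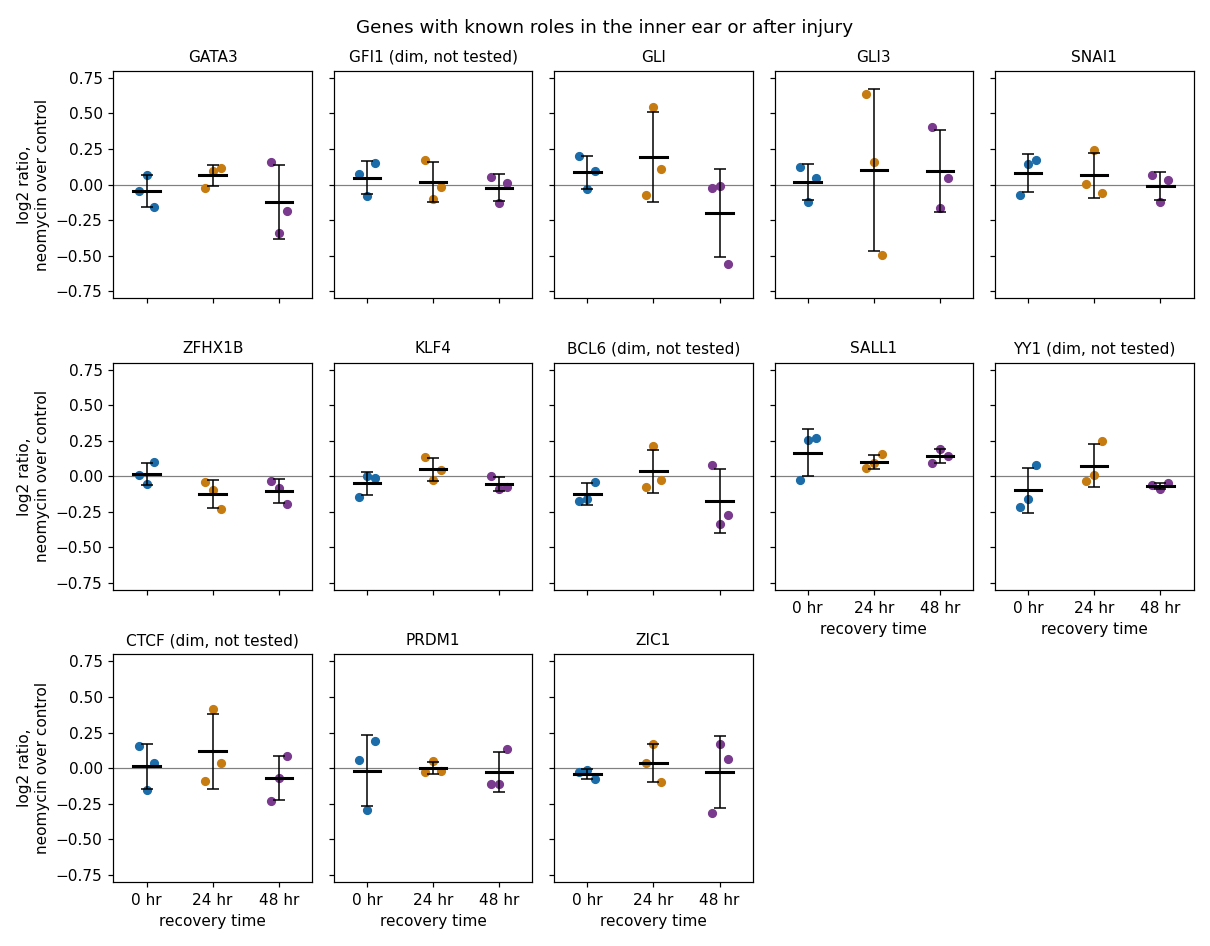
Log2 ratio of neomycin over control (y axis) by recovery time (x axis) for genes with known roles in the inner ear or after injury that are not among the smallest p-values. Dots are the 3 biological replicates, thick lines their means and bars their SDs. Most replicates scatter on both sides of 0, and SALL1 lies above 0 in 8 of 9.

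**Figure D5:**
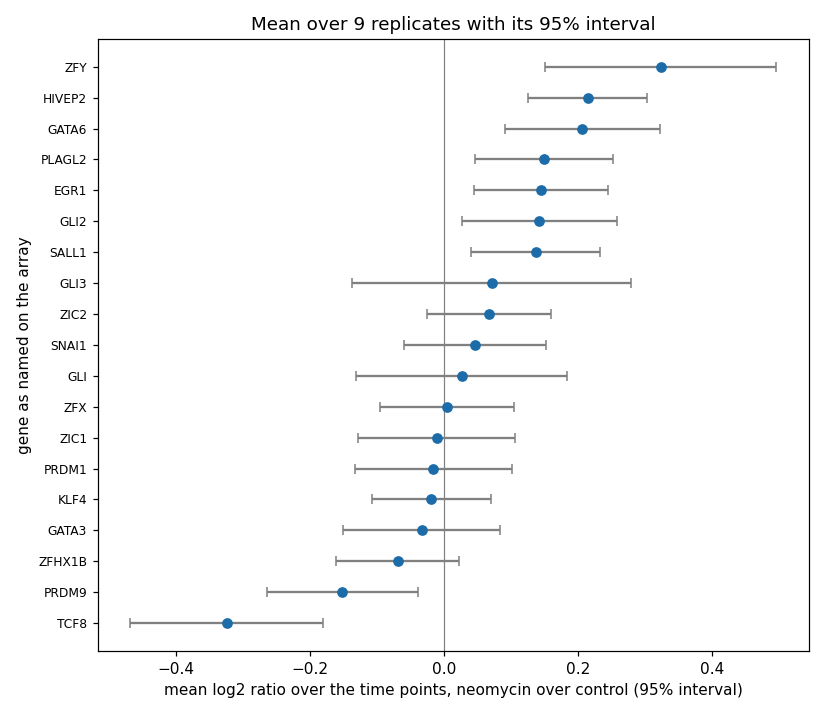
Mean log2 ratio of neomycin over control over the 9 replicates (x axis) with its unadjusted 95% interval for the tested genes named in full (rows). The intervals of ZFY, HIVEP2 and TCF8 clear 0 by the most, and those of GATA3, KLF4, ZIC1 and PRDM1 straddle it.

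The intervals hold for this fit alone. Over the 3 time points the unadjusted 95% interval was -0.15 to 0.08 for GATA3, -0.11 to 0.07 for KLF4 and -0.06 to 0.15 for SNAI1. Over the alternatives the mean ran from -0.35 to -0.01 for GATA3, the lowest with the deposited log2 values and outside its interval, and it ran from -0.08 to 0.04 for KLF4 and from 0.01 to 0.08 for SNAI1.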

How the data were processed

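Each array compared amplified RNA of neomycin-treated and time-matched control epithelia on human 50-mer probes in duplicate. The authors scanned both dyes and deposited spot intensity values from ImaGene (version 4.1 in the first header) and log2 ratios per spot in a value table, which equal the uncorrected foreground ratios turned to neomycin over control and served as an alternative. The array files name no genome build.

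Here the deposited intensity values were corrected with normexp (offset 50) and normalised by global loess in limma 3.58.1 under R 4.3.3, with spots of no gene at weight 0 and the 8 flagged spots left out. Duplicate spots, arrays within a dye orientation and then both orientations were averaged to 9 biological replicates. The dimmest 15% of gene probes (226 of 1507) were removed by median brightness, the geometric mean of both scanned dyes, and 1281 were fitted with 1 coefficient per time point. The threshold for a call was an adjusted p (Benjamini-Hochberg) under 0.05. The script was tested on simulated data.

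The members and lists were chosen with earlier results of these data known. Genes were given replicate by replicate if called or among the 5 smallest p at 0, 24 or 48 hr or in the mean. Genes listed for a known role were described too, whatever their values. Other settings were background correction, normalization, filters, dye orientation, single replicates, blocks and the methods' own test. KLF5 is detailed, GATA4, PRDM16 and SALL2 are named for values outside that rule, and so were chosen after their values were seen. Some results, 2 members among them, are not reported here.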

Additional observations from a re-analysis of the deposited data

Results flagged for a closer look

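In 2 members all 3 replicates of one time point lay above 0 and all 3 of another below it, a pattern that 63 of the 1281 tested genes (4.92%) had. ZFX differed by 0.42 at 24 against 0 hr and by -0.43 at 48 against 24 hr. EGR4, an immediate early gene of the EGR family, was at -0.13 ± 0.10 at 24 hr, against 0.06 ± 0.04 at 0 hr (SD, n = 3 each), a difference of -0.19. None of these differences passed limma's test between time points (adjusted p of 0.997, 0.999 and 0.997).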

How the results depend on the processing

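The count of members called was 0 at 0, 24 and 48 hr and in the 3 differences between times under every alternative run. In the mean over the time points 1 member was called, HIVEP2. With the sign of all ratios turned the count was fixed at 1 by construction, since two-sided p-values do not change. The count stayed at 1 with print-tip loess and with the 4 arrays of another brightness pattern left out. It was 0 with uncorrected intensities, after subtracting the background, after centring each array on its median, after scaling between arrays, with all dim probes kept or the dimmest 20% removed, at a brightness of at least 800, with neomycin only in Cy3 or only in Cy5, with the deposited log2 values, with the plain mean over arrays and with the methods' t-test on the replicates. It was also 0 in 3 settings chosen after seeing the data, namely leaving out the array whose image name carries a remark of poor quality, moving 1 array's grid, and judging dim probes after background correction (HIVEP2 adjusted p = 0.0518). It ranged from 0 to 3 with each replicate left out. It rose to 6 with all arrays and the replicate as random block, 6 with the day of quantification as random block and 6 with the methods' t-test over hybridisations, which treat arrays of shared RNA as more independent (HIVEP2, TCF8, ZFY, GATA6, SALL1 and SALL2 in that test). The F test called 0 members, but 3 with the replicate as random block and 3 with the day as random block. For these alternatives, and for the replicate number as a block below, the share of all tested genes called was not counted. The counts therefore do not show whether members were called more often than other genes.

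Over the 1281 tested genes, 2 of 9 same-numbered pairs of replicates correlated above 0.1 (r from -0.11 to 0.188). A correlation over all genes does not settle whether replicates pair in a single gene. Replicate 3 was furthest from 0 at 0, 24 and 48 hr in TCF8 (-0.46, -0.65 and -0.52) and in ZFY (0.69, 0.67 and 0.43). With the replicate number as a block, 3 members were called in the mean, HIVEP2 (adjusted p = 0.0424), TCF8 (0.0145) and ZFY (0.0279), and no other count of calls changed.

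With the sign of all ratios turned, by construction, the values were -0.29 for HIVEP2, -0.28 for GATA6, -0.22 for ZIC2, 0.30 for TCF8 and -0.20 for EGR1 at 0 hr, -0.29 for ZFX, 0.36 for TCF8, -0.38 for ZFY and -0.18 for PLAGL2 at 24 hr, -0.35 for GLI2, -0.25 for HIVEP2, 0.31 for TCF8, -0.25 for GATA6 and 0.24 for PRDM9 at 48 hr, and -0.21 for HIVEP2, 0.32 for TCF8, -0.32 for ZFY, -0.21 for GATA6 and -0.15 for PLAGL2 in the mean over the time points. Signal near background, with a median of 2.02 times it in Cy3 and 1.83 times in Cy5, and 3 replicates a time point limit what could be called. The fits between time points have no value from the methods' t-test.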
